A study of Rattus norvegicus with 24 samples.

Results

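Water channels of the aquaporin family and the vasopressin V2 receptor were followed in the kidney of hypertensive rats on a salt- and fat-rich diet. The genes were Aqp1, Aqp2, Aqp3, Aqp4, Aqp7 and Avpr2. Every probe set that the array's annotation assigns to 1 of these 6 symbols was taken, whatever its signal. This gave 10 probe sets of the 15923 on the array, and 9 of them were bright enough to be tested. The animals were male stroke-prone spontaneously hypertensive rats (SHR-SP), a strain with inherited high blood pressure, and the diets started at 11 weeks of age. Control animals ate powdered Purina 5001 chow with plain water (normal diet). The others ate chow with 24.5% fat and drank water with 1% NaCl (here the salt-fat diet). Kidneys were taken after 2 or 8 weeks, from 6 animals for each of the 4 combinations of diet and time, with 1 array per animal and 24 arrays in all. All groups shared strain and sex, no other strain was included here, and salt and fat were always given together, so their effects cannot be told apart.

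Vasopressin is the antidiuretic hormone. It binds the V2 receptor on the blood side of collecting duct principal cells, and the receptor raises cAMP, which activates protein kinase A. Aqp2 then moves into the membrane facing the urine, and over a longer time its transcription rises. Water that enters through Aqp2 leaves the cell on the blood side through Aqp3 and Aqp4. Aqp1 carries water across the proximal tubule and the descending thin limb, and Aqp7 carries water and glycerol in the straight part of the proximal tubule and in fat cells.

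The 3 collecting duct channels were higher on the salt-fat diet. After 2 weeks Aqp2 was 2.23-fold and Aqp3 1.66-fold higher than on the normal diet. Aqp4 was higher too, at least 2.40-fold by its brightest probe set, which was dim on the normal diet. Avpr2 rose 1.45-fold by 1 of its 2 probe sets. Aqp1 fell by 1 of its 2 probe sets, and Aqp7 did not pass the test. After 8 weeks Aqp2 and Aqp3 were 1.66-fold and 1.25-fold higher, and Aqp4 at least 1.67-fold by its brightest probe set. A dimmer Aqp4 probe set, 1368981_at, did not pass the test at 8 weeks (limma adjusted p = 0.0932). Its log2 bounds were -0.048 at 2 weeks and 0.0071 at 8 weeks. Aqp3 no longer passed at 8 weeks without normal-diet arrays 1 and 2 of that time (limma adjusted p = 0.0893). The Aqp4 bounds set a normal-diet signal below the array's 40th percentile to that percentile, which is a filter level and not a measured background. These folds are on the scale of log2(signal + 7.2), where 7.2 is 0.1 times the median array median. That scale understates the change of dim probe sets such as those of Aqp4.

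The 24 arrays had median signals of 68.7 to 78.7, and log2 signals correlated within groups at 0.958 to 0.981. Normal-diet arrays 1 and 2 at 8 weeks stood apart in their dimmest values, and the group's highest 1st percentile of signal was 3 against at most 1.1 in the other groups. Results at 8 weeks are therefore also given without them where a call changed. The GAPDH 3' to 5' signal ratio, a measure of RNA integrity, was 0.969 to 1.18 on the normal diet and 1.13 to 1.40 on the salt-fat diet at 2 weeks. At 8 weeks it was 1.09 to 1.26 and 1.07 to 1.33. The actin 3' to 5' ratio was 1.16 to 1.47 and 1.31 to 2.27 at 2 weeks, and salt-fat array 2 held the 2.27, with the next at 1.57. Without that array the 6 member calls for diet at 2 weeks held. The part of these ratios in the 2-week diet differences was not tested. In whole-kidney RNA, fewer cells of a type and less RNA per cell cannot be told apart.

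**Figure D1:**
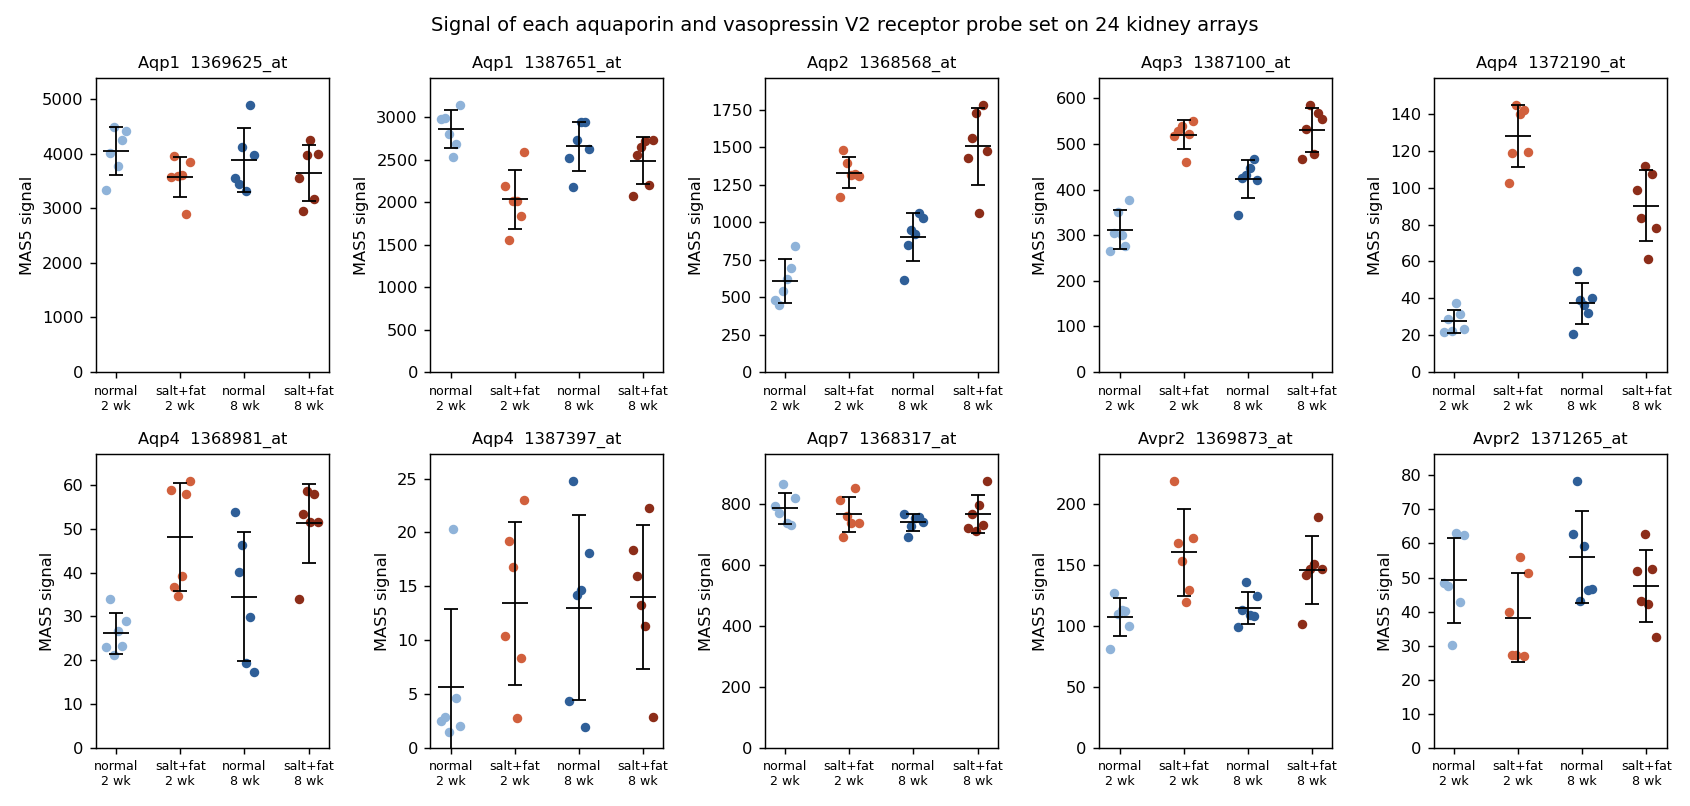
MAS5 signal (linear, vertical axis from 0, own range in each panel) of each of the 10 probe sets in the 4 groups (horizontal axis). Points are animals, 6 per group, and black bars are the mean ± SD. The Aqp2 points of both salt-fat groups lie above those of the normal diet at the same time, and the Aqp7 points do not separate.

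Aqp2, the vasopressin-regulated channel of the urine-facing membrane, was measured by 1368568_at. Its signal on the normal diet at 2 weeks ran from 447 to 841 with a median of 583. On the salt-fat diet at 2 weeks it ran from 1171 to 1479 with a median of 1318. The lowest salt-fat animal thus lay above the highest normal-diet animal. At 8 weeks the normal-diet signals were 617 to 1062 with a median of 936, and the salt-fat signals were 1065 to 1782 with a median of 1517. The 8-week groups met without overlapping. The group means were 605 ± 147 and 1331 ± 102 (SD, n = 6) at 2 weeks and 904 ± 160 and 1506 ± 257 (SD, n = 6) at 8 weeks. The log2 difference between diets was 1.16 ± 0.14 (SE; limma adjusted p = 3.76e-06) at 2 weeks and 0.73 ± 0.14 (SE; limma adjusted p = 0.000806) at 8 weeks.

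Aqp3, the water and glycerol channel of the blood-facing membrane, was measured by 1387100_at. At 2 weeks the normal-diet signals ran from 265 to 377 with a median of 302, and the salt-fat signals ran from 459 to 550 with a median of 526. These 2-week groups did not overlap. At 8 weeks the signals were 344 to 466 with a median of 428 on the normal diet, and 466 to 585 with a median of 543 on the salt-fat diet. The 8-week ranges touched, as the lowest salt-fat animal had 465.9 and the highest normal-diet animal 466. Means were 312 ± 42.9 and 520 ± 31.8 (SD, n = 6) at 2 weeks, and 422 ± 41.7 and 531 ± 48.7 (SD, n = 6) at 8 weeks. The log2 difference was 0.73 ± 0.08 (SE; limma adjusted p = 3.15e-06) at 2 weeks and 0.33 ± 0.08 (SE; limma adjusted p = 0.0142) at 8 weeks. Without normal-diet arrays 1 and 2 at 8 weeks, the 8-week value was 0.26 and no longer passed the test (limma adjusted p = 0.0893).

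Aqp4, the second channel of the blood-facing membrane, has 3 probe sets. By 1372190_at the signal at 2 weeks was 21.6 to 37.6 with a median of 25.9 on the normal diet, and 102 to 145 with a median of 130 on the salt-fat diet. At 8 weeks it was 20.8 to 55.0 with a median of 37.7 on the normal diet, and 61.3 to 112 with a median of 91.2 on the salt-fat diet. The diets did not overlap at either time. Means were 27.5 ± 6.33 and 128 ± 16.9 (SD, n = 6) at 2 weeks, and 37.2 ± 11.2 and 90.2 ± 19.3 (SD, n = 6) at 8 weeks. The log2 difference was 1.97 ± 0.16 (SE; limma adjusted p = 9.94e-09) at 2 weeks and 1.15 ± 0.16 (SE; limma adjusted p = 3.61e-05) at 8 weeks. Normal-diet signals of this probe set were in the dim part of the array: 0 of 6 arrays at 2 weeks and 1 of 6 at 8 weeks exceeded the array's 40th percentile, against 6 of 6 in both salt-fat groups. The probe set therefore entered the test through the groups in which it was high. Its measured folds of 3.92 at 2 weeks and 2.21 at 8 weeks have a baseline in that dim range, and the bounds are 2.40 and 1.67.

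The other Aqp4 probe sets were dimmer. By 1368981_at the 2-week signals were 21.2 to 34.0 with a median of 24.9 on the normal diet and 34.7 to 61.0 with a median of 48.7 on the salt-fat diet, without overlap. The log2 difference was 0.71 ± 0.21 (SE; limma adjusted p = 0.0301). That call was lost without normal-diet array 1, 3 or 5 or salt-fat array 1, 5 or 6 at 2 weeks, where the difference was 0.64 to 0.69 and the adjusted p at most 0.0711. At 8 weeks the signals were 17.3 to 53.8 (median 35.0) and 34.1 to 58.7 (median 52.6), which overlapped. The 8-week difference of 0.55 ± 0.21 (SE) did not pass the test (limma adjusted p = 0.0932). It passed without normal-diet array 1 (0.68, limma adjusted p = 0.0448) and without normal-diet arrays 1 and 2 (0.78, limma adjusted p = 0.0303). For 1368981_at, 0 and 1 normal-diet arrays exceeded the 40th percentile at 2 and 8 weeks, against 3 and 5 salt-fat arrays. With dim normal-diet signals set to that percentile, its log2 bounds were -0.048 at 2 weeks and 0.0071 at 8 weeks. These bounds secure no rise by this probe set. The remaining probe set, 1387397_at, was below the 40th percentile on all 24 arrays and was not tested, with medians of 2.70 and 13.6 at 2 weeks and 14.4 and 14.7 at 8 weeks. Skeletal muscle, which also holds Aqp4, was followed by its markers: 2 of 8 measured muscle genes passed the filter, and limma called 0 of them at either time, or 1 lower at 2 weeks without normal-diet arrays 1 and 2 at 8 weeks. At an unadjusted p under 0.05 there was 1 at each time, Ckm at 2 weeks and Myh1 at 8 weeks. The summed muscle signal was 1708 to 2070 on the normal diet and 1438 to 1878 on the salt-fat diet at 2 weeks, but Myh1 alone supplied 1684 of the mean of 1829 on the normal diet. The other 7 muscle genes summed to 122 to 179 and 97.3 to 127, with Acta1 means of 6.73 and 7.88 and Mb means of 3.87 and 6.05. The part of muscle in the Aqp4 difference was not tested.

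Avpr2, the vasopressin receptor itself, has 2 probe sets whose differences had opposite signs. By 1369873_at the 2-week signals were 80.9 to 127 with a median of 111 on the normal diet and 120 to 219 with a median of 161 on the salt-fat diet. The ranges overlapped slightly, but each of the 6 salt-fat animals lay above the normal-diet median. The means were 107 ± 15.4 and 160 ± 35.5 (SD, n = 6), and the log2 difference was 0.54 ± 0.13 (SE; limma adjusted p = 0.0101). At 8 weeks the signals were 99.3 to 136 (median 111) and 101 to 189 (median 146), and the difference of 0.31 ± 0.13 (SE) did not pass the test (limma adjusted p = 0.136). By 1371265_at the 2-week medians were 48.0 on the normal diet and 33.6 on the salt-fat diet, with ranges of 30.1 to 63.1 and 27.0 to 56.1. That difference of -0.33 ± 0.19 (SE; limma adjusted p = 0.312), and the one at 8 weeks of -0.21 ± 0.19 (SE; limma adjusted p = 0.556), did not pass the test.

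Aqp1, the constitutive water channel of the proximal tubule and thin limb, has 2 probe sets that are annotated to the same transcript record. By 1387651_at the 2-week signals were 2536 to 3145 with a median of 2895 on the normal diet and 1555 to 2590 with a median of 2014 on the salt-fat diet. All 6 salt-fat animals lay below the normal-diet median, while the ranges overlapped. The log2 difference was -0.50 ± 0.10 (SE; limma adjusted p = 0.00131). By 1369625_at the 2-week signals were 3341 to 4496 (median 4138) and 2901 to 3953 (median 3605). Its difference of -0.18 ± 0.10 (SE; limma adjusted p = 0.291) did not pass the test and was 0.03 after quantile normalization. At 8 weeks the signals of 1387651_at were 2176 to 2948 (median 2680) and 2076 to 2733 (median 2607), and those of 1369625_at were 3315 to 4888 (median 3766) and 2948 to 4241 (median 3766). Both probe sets overlapped widely, with log2 differences of -0.09 ± 0.10 (SE; limma adjusted p = 0.603) for 1387651_at and -0.09 ± 0.10 (SE; limma adjusted p = 0.633) for 1369625_at.

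Many other proximal tubule genes fell too. Of 30 measured, 18 fell and 1 rose at 2 weeks, and 10 fell at 8 weeks. Of all probe sets tested, 4.19% fell and 4.55% rose at 2 weeks, and 3.51% fell at 8 weeks. The 4 with the smallest p at 2 weeks were Slc4a4 (sodium bicarbonate cotransporter, -0.47), Hnf4a (a proximal tubule transcription factor, -0.74), Ass1 (arginine synthesis, -0.44) and Cyp2e1 (-0.52). The 1 that rose was the organic cation transporter Slc22a2 (0.34), named after its value was seen. The list's median difference was -0.31 at 2 weeks and -0.21 at 8 weeks, against 0.017 and -0.0015 over all probe sets tested. The summed proximal tubule signal was 74882 to 82090 on the normal diet and 56285 to 71901 on the salt-fat diet at 2 weeks, without overlap. Endothelial and red blood cells also hold Aqp1. Of 11 endothelial genes tested, Esam (0.48) and Emcn (0.22) rose at 2 weeks and Kdr (-0.40) fell at 8 weeks, and these were named after their values were seen. Without normal-diet arrays 1 and 2 at 8 weeks, 1 of the 11 rose at 2 weeks. The summed endothelial signal was 2347 to 2642 and 2598 to 3184 on the normal and the salt-fat diet at 2 weeks. Of 3 red cell genes tested, 1 rose at 2 weeks, Slc4a1 (0.44), which intercalated cells also express. Of 3 thin limb genes tested, Cryab rose at 2 weeks (0.78, limma adjusted p = 0.000159) and Cldn4 had 0.61 (limma adjusted p = 0.145). This list was set up for the thin limb as a whole and does not single out its descending part. Slc14a2 by 1371205_at, its probe set of highest mean signal, had -0.16. Its dimmer probe sets 1387550_a_at (1.63, limma adjusted p = 0.00383) and 1398312_s_at (0.99, limma adjusted p = 0.00244) were called higher. Without normal-diet arrays 1 and 2 at 8 weeks, 2 of the 3 thin limb genes rose at 2 weeks. The summed thin limb signal, mostly Cryab, was 1139 to 1334 on the normal diet and 1778 to 2368 on the salt-fat diet at 2 weeks, without overlap. The part of any of these cell types in the Aqp1 difference was not tested.

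Aqp7, the aquaglyceroporin of the straight proximal tubule, was measured by 1368317_at. At 2 weeks its signals were 730 to 864 with a median of 781 on the normal diet and 691 to 853 with a median of 748 on the salt-fat diet. At 8 weeks they were 690 to 767 with a median of 746 and 711 to 875 with a median of 747. All 4 groups overlapped. The log2 difference was -0.04 ± 0.06 (SE; limma adjusted p = 0.755), with a 95% interval from -0.17 to 0.09, at 2 weeks. At 8 weeks it was 0.05 ± 0.06 (SE; limma adjusted p = 0.686), with a 95% interval from -0.08 to 0.18. Fat cells also hold Aqp7. Their markers differed between diets at 2 weeks, as 6 of 8 tested adipocyte genes fell, including the carbonic anhydrase Car3 (-3.44), lipoprotein lipase Lpl (-1.17), the adrenergic receptor Adrb3 (-0.87) and Cfd (-1.87). Over all probe sets tested, 4.19% were called lower at 2 weeks. At 8 weeks 0 of the 8 were called by limma, and 1, Lipe, had an unadjusted p under 0.05. The summed adipocyte signal was 4605 to 9420 on the normal diet and 2955 to 5019 on the salt-fat diet at 2 weeks, and 3873 to 8781 and 4111 to 4810 at 8 weeks. Pck1, which the proximal tubule also expresses, supplied 4367 of the mean of 6893 on the normal diet at 2 weeks. The other 9 genes summed to 594 to 4960 (median 1946) and 340 to 607 (median 457) at 2 weeks, and to 337 to 4290 and 664 to 1069 at 8 weeks. The part of fat cells in the Aqp7 signal was not tested.

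**Figure D2:**
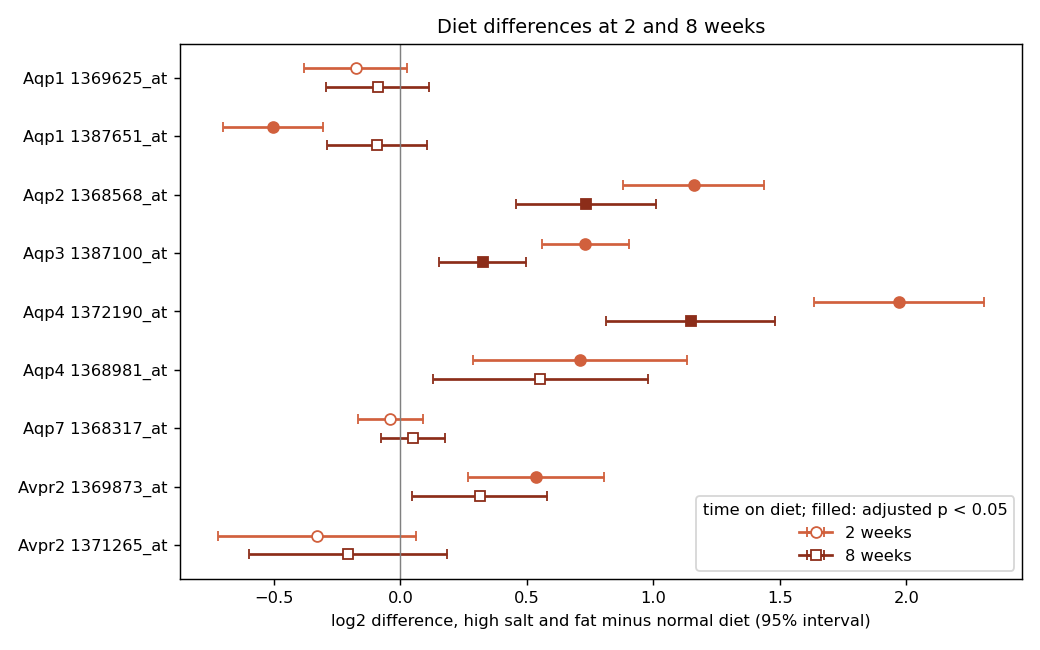
Log2 difference of salt-fat minus normal diet (horizontal axis) for the 9 tested probe sets (vertical axis) at 2 weeks (circles) and 8 weeks (squares). Bars are 95% intervals from the limma fit, and filled symbols mark an adjusted p under 0.05. The Aqp4 1372190_at values of 1.97 and 1.15 have a dim normal-diet baseline, and both Aqp7 intervals include 0.

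Across the members, 6 of the 9 tested probe sets were called at 2 weeks, 5 higher and 1 lower. Over all 10208 probe sets tested, 8.74% were called at 2 weeks, 4.55% higher and 4.19% lower. At 8 weeks 3 of the 9 were called, all higher, against 9.14% of all, 5.63% higher and 3.51% lower. Without salt-fat array 1 or 5 at 8 weeks, 543 and 579 of all probe sets were called, in place of 933, and 542 without normal-diet arrays 1 and 2. The diets did not overlap, with the salt-fat diet higher, for 4 member probe sets at 2 weeks, against 2.67% of all. At 8 weeks this held for 2 member probe sets, against 2.21% of all. Both Aqp4 probe sets entered the test mostly through the salt-fat arrays, so these counts carry no weight as a statement about the family.

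Ordered by group mean, Aqp2 and Aqp3 ran in the same order: normal diet at 2 weeks, normal diet at 8 weeks, salt-fat diet at 2 weeks, salt-fat diet at 8 weeks. For Aqp2 the step from the 8-week normal-diet group to the 2-week salt-fat group was the 1 step whose ranges did not overlap. For Aqp3 each pair of neighbours overlapped. For Aqp4 by 1372190_at the 8-week salt-fat mean was below the 2-week one, and the 1 step without overlap lay between the normal diet at 8 weeks and the salt-fat diet at 8 weeks. For Aqp1, Aqp7 and Avpr2, and for the other Aqp4 probe sets, each pair of neighbouring groups overlapped.

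The diet differences of the collecting duct channels had smaller estimates at 8 than at 2 weeks, and the change between times did not pass the test for any member. The difference of differences was -0.82 ± 0.23 (SE; limma adjusted p = 0.145) for Aqp4 1372190_at, -0.43 ± 0.19 (SE; limma adjusted p = 0.388) for Aqp2 and -0.41 ± 0.12 (SE; limma adjusted p = 0.150) for Aqp3. For Aqp1 1387651_at it was 0.41 ± 0.14 (SE; limma adjusted p = 0.217). By limma 0 of the 9 member probe sets were called here, against 0.382% of all. At an unadjusted p under 0.05 these were the 4. Without normal-diet array 1 at 8 weeks the Aqp4 value was -0.95 and passed the test (limma adjusted p = 0.0303). Over all probe sets 39 were called, and 22 without salt-fat array 3 at 8 weeks.

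Levels were also compared between 2 and 8 weeks within each diet. On the normal diet, for Aqp3 the log2 difference of 8 minus 2 weeks was 0.43 ± 0.08 (SE; limma adjusted p = 0.0488), and all 6 of the 8-week animals lay above the 2-week median. It was the 1 member called, against 0.0392% of all probe sets, or 4 in number (0 to 10 when single arrays were left out). The call was lost when any of 19 of the 24 arrays was left out, with values of 0.39 to 0.49 over all 24 omissions and adjusted p from 0.00545 to 0.179. For Aqp2 the difference was 0.59 ± 0.14 (SE; limma adjusted p = 0.169). It passed the test without normal-diet array 6 at 2 weeks (0.69, limma adjusted p = 0.0312), without normal-diet array 1 at 8 weeks (0.69, limma adjusted p = 0.0162) and without normal-diet arrays 1 and 2 at 8 weeks (0.74, limma adjusted p = 0.0289). On the salt-fat diet limma called 0 of 9 member probe sets between times, against 3.53% of all, and 2 had an unadjusted p under 0.05. Of all probe sets 360 were called, 220 without salt-fat array 5 at 8 weeks and 233 without salt-fat array 3 at 2 weeks. These were Aqp4 1372190_at with -0.49 ± 0.16 (SE; limma adjusted p = 0.0969), and Aqp1 1387651_at with 0.30 ± 0.10 (SE; limma adjusted p = 0.0826). The Aqp4 value passed without normal-diet arrays 1 and 2 at 8 weeks (-0.49, limma adjusted p = 0.0460). The Aqp1 value passed without salt-fat array 6 at 2 weeks (0.37, limma adjusted p = 0.0170) and without salt-fat array 1 at 8 weeks (0.35, limma adjusted p = 0.0477). Aqp2, Aqp3 and Aqp7 differed by 0.16, 0.03 and 0.0019 there, and the Aqp3 and Aqp7 values were -0.015 and -0.04 after centring. Of the 360 probe sets called between times on the salt-fat diet, 63.1% were higher, and 46.9% of those called after arrays were centred on their medians. On the normal diet the shares were 75% of 4 and, after centring, 50% of 2, which are too few to show a shift.

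The sequence before the start site is shown for the channels whose level differed most, since cAMP signalling and tonicity are known to act on Aqp2 transcription. RefSeq promoter windows on the rat assembly GRCr8 were matched by symbol for 5 of the 6 genes, with Aqp7 named only, and 250 bases before each start were searched on both strands for 6 motifs. These were the cAMP response element TGACGTCA and its core TGACG, which lies inside it, the AP-1 site TGANTCA, the GATA site GATAA, the E-box CACGTG and the core TGGAAA of the tonicity element. The windows of Aqp2 (chr7:132590036-132590285, plus strand) and Aqp3 (chr5:61040684-61040933, minus strand) read, 5′ to 3′ with motifs in capitals:
Aqp2: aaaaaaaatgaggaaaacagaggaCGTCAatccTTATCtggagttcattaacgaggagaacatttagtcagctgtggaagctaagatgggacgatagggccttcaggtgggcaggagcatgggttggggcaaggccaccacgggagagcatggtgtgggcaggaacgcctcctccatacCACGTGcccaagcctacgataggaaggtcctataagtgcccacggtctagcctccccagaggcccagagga
Aqp3: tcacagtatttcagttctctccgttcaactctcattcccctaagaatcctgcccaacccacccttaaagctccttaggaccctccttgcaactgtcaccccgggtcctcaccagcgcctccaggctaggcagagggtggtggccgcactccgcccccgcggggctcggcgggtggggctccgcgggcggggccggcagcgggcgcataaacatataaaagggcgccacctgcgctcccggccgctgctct

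In the Aqp2 window the capitals mark the core of a cAMP response element on the reverse strand, 226 bases before the start, a GATA motif on the reverse strand at 217 and an E-box at 71. That core is present in 18.2% of all 33469 RefSeq windows of this length, GATAA in 23.5% and CACGTG in 5.59%. The whole TGACGTCA, present in 1.59%, and TGANTCA, present in 6.34%, were not found in the Aqp2 window. The Aqp3 and Aqp1 windows held none of the 6 motifs, and the Avpr2 window held 1 GATA motif. The Aqp4 windows, 1 for each of 2 annotated starts, held TGGAAA, which 19.7% of all windows hold. The stretches of 30 bases around it lie on the minus strand of chromosome 18. They are given because Aqp4 was called at both times by 1372190_at, whose normal-diet baseline was dim. By 1368981_at it was not called at 8 weeks. The first of the stretches lie 184 and 44 bases before the upstream start, and the last 72 bases before the downstream start:
Aqp4, chr18:6799009-6799038: gggaagttccacTGGAAAgatgagcagcta
Aqp4, chr18:6798869-6798898: tggtgcagaatcTTTCCAcccctacactcc
Aqp4, chr18:6797981-6798010: ggaggctggcctTTTCCAggaccgcctctc

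On the chromosomes, Aqp3 and Aqp7 are direct neighbours on chromosome 5, and Aqp5 follows Aqp2 on chromosome 7. Of these neighbours, Aqp7 was not called at either time, and Aqp5 was too dim to be tested. The 5 other aquaporin genes with a probe set, Aqp5, Aqp6, Aqp8, Aqp9 and Mip, all lay below the filter. Aqp6, a channel of intercalated cells, had group means of 30.4 to 39.2, and Aqp8 had 34.2 to 44.5.

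Genes linked to the receptor and to Aqp2 were called about as often as probe sets in general. The calls were too few to show a direction. Of 26 tested genes of vasopressin signalling and Aqp2 trafficking, 2 rose and 1 fell at 2 weeks and 3 rose at 8 weeks, against 8.74% and 9.14% of all probe sets called. The median difference was -0.017 at 2 weeks and 0.027 at 8 weeks, against 0.017 and -0.0015 over all probe sets tested. At 2 weeks the kinase anchor Akap12 rose by 0.47 ± 0.14 (SE) and the ubiquitin ligase Nedd4l by 0.37 ± 0.11 (SE), and the cAMP-degrading Pde4d had -0.50 ± 0.14 (SE). At 8 weeks Akap12 was higher by 0.90 ± 0.14 (SE), Rhoa, which organises actin, by 0.47 ± 0.11 (SE), and Prkar1a, a regulatory subunit of protein kinase A, by 0.26 ± 0.07 (SE). Their limma adjusted p ranged from 7.03e-05 for Akap12 at 8 weeks to 0.0306 for Nedd4l at 2 weeks. Without normal-diet arrays 1 and 2 at 8 weeks, 2 of the 26 rose at 8 weeks.

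Other genes listed for principal cells, the cells that hold Aqp2, Aqp3, Aqp4 and Avpr2, were called in both directions at 2 weeks. Of 15 such genes, 3 rose and 1 fell at 2 weeks, and 1 rose and 1 fell at 8 weeks. Of all probe sets tested, 8.74% and 9.14% were called either way at these times. The median difference was 0.0029 at 2 weeks and 0.035 at 8 weeks. The sodium pump regulator Fxyd4 rose by 1.02 ± 0.14 (SE), from 112 ± 20.9 to 238 ± 57.9 (SD, n = 6), Prom2 by 0.53 ± 0.12 (SE) and the keratin Krt18 by 0.58 ± 0.16 (SE) at 2 weeks. The beta subunit of the epithelial sodium channel, Scnn1b, fell by 0.26 ± 0.08 (SE). At 8 weeks Fxyd4 was higher by 0.67 ± 0.14 (SE) and Calb1, a calcium-binding protein of the connecting tubule, was lower, at -0.58 ± 0.10 (SE). The summed signal of the 15 genes was 9233 to 10079 on the normal diet and 8750 to 10155 on the salt-fat diet at 2 weeks, and 8523 to 9860 and 8470 to 9811 at 8 weeks. Atp1b1, which other tubule segments also express, supplied 5672 of the mean of 9677 on the normal diet at 2 weeks. The other 14 genes summed to 3869 to 4205 and 4041 to 4360 at 2 weeks, and to 3478 to 3912 and 3266 to 3939 at 8 weeks. Calb1, the 1 gene that fell at 8 weeks, is among these 14 and is also listed for the connecting tubule. Its 8-week means were 1220 on the normal and 831 on the salt-fat diet, within 14-gene means of 3751 and 3530. The 8-week fall and this sum thus do not stand for principal cells alone. The part of principal cell number in the Aqp2, Aqp3 and Aqp4 differences was not tested.

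Urothelium, which lines the renal pelvis and holds Aqp3, differed in 1 marker. Of 4 tested urothelial genes, Psca rose at both times, by 3.24 at 2 weeks and 2.83 at 8 weeks, from means of 9.83 to 153 and of 10.3 to 115. Over all probe sets tested, 4.55% and 5.63% were called higher at these times. The summed urothelial signal was 657 to 787 and 800 to 945 on the normal and the salt-fat diet at 2 weeks, and 606 to 750 and 776 to 919 at 8 weeks, without overlap. Without Psca, which was dim on the normal diet, the sums of the other 4 genes overlapped, at 647 to 782 and 707 to 747 at 2 weeks and 598 to 744 and 655 to 767 at 8 weeks. The part of urothelium in the Aqp3 difference was not tested.

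Genes of the tonicity and osmolyte response of the medulla, where the collecting duct channels act, were also followed. Of 10 tested, 5 rose and 1 fell at each time, with a median difference of 0.36 at 2 weeks and 0.16 at 8 weeks. Of all probe sets tested, 4.55% were called higher at 2 weeks and 5.63% at 8 weeks. Aldose reductase Akr1b1, which makes the osmolyte sorbitol, rose by 1.86 ± 0.22 (SE; limma adjusted p = 3.76e-06) at 2 weeks and 1.46 ± 0.22 (SE; limma adjusted p = 5.68e-05) at 8 weeks. Isyna1, which makes inositol, rose by 1.21 ± 0.21 (SE) at 2 weeks. At that time Sord, which breaks sorbitol down, fell by 0.40 ± 0.08 (SE), and the taurine transporter Slc6a6 rose by 0.54 ± 0.12 (SE). At 8 weeks Slc6a6 had -0.035 and was not called (limma adjusted p = 0.900), while Isyna1 (1.01) and Sord (-0.24) were called. Without normal-diet arrays 1 and 2 at 8 weeks, 3 of the 10 rose at 8 weeks and Sord was no longer called. Of 11 thick ascending limb genes, 5 rose at 2 weeks, and 3 rose and 1 fell at 8 weeks, or 1 and 1 without those arrays.

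For each member, the genes with the nearest pattern were found in 2 ways over the 24 arrays: by the root mean square difference of the 4 centred group means, and by Pearson's r of the deviations from group means. The genes nearest to Aqp2 in group means were Mest (0.0515), Sppl2b (0.0818) and the urea transporter gene Slc14a2 by 1398312_s_at (0.104). Those nearest to Aqp4 were Slc14a2 by 1387550_a_at (0.161), Slco4a1 (0.192) and Akr1b1 (0.202). Slc14a2 signals by 1387550_a_at averaged 18.6 and 70.4 at 2 weeks and 23.9 and 69.8 at 8 weeks on the normal and the salt-fat diet. The Slc14a2 probe set with the highest mean log2 signal, 1371205_at, had a log2 difference of -0.16 at 2 weeks and was not called. The principal cell, tonicity and thin limb lists count Slc14a2 by this probe set. By contrast, 1387550_a_at and 1398312_s_at were called higher at 2 weeks (1.63 and 0.99, limma adjusted p = 0.00383 and 0.00244). The same held at 8 weeks (1.37 and 0.80, limma adjusted p = 0.0139 and 0.0132). The nearest to Aqp3 were Sox4 (0.0515), Dnmt1 (0.0523) and Rps24 (0.0606), and the nearest to Avpr2 were Mmgt2 (0.00871), Rnaseh2a (0.0147) and Fkbp5 (0.0162). The nearest to Aqp1 was Cdc26 (0.00789) and the nearest to Aqp7 was Zfp729 (0.00351). By deviations within groups, the closest were Colgalt1 to Aqp2 (r = 0.82), Epn3 to Aqp3 (r = 0.67), Tspan31 to Aqp4 (r = 0.81), Aak1 to Avpr2 (r = 0.75), Ldhd to Aqp1 (r = 0.78) and Marchf5 to Aqp7 (r = 0.77). No gene was nearest by both measures for any of the 6 members, and these correlations were picked as the highest over the genes tested, so they carry no test.

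**Figure D3:**
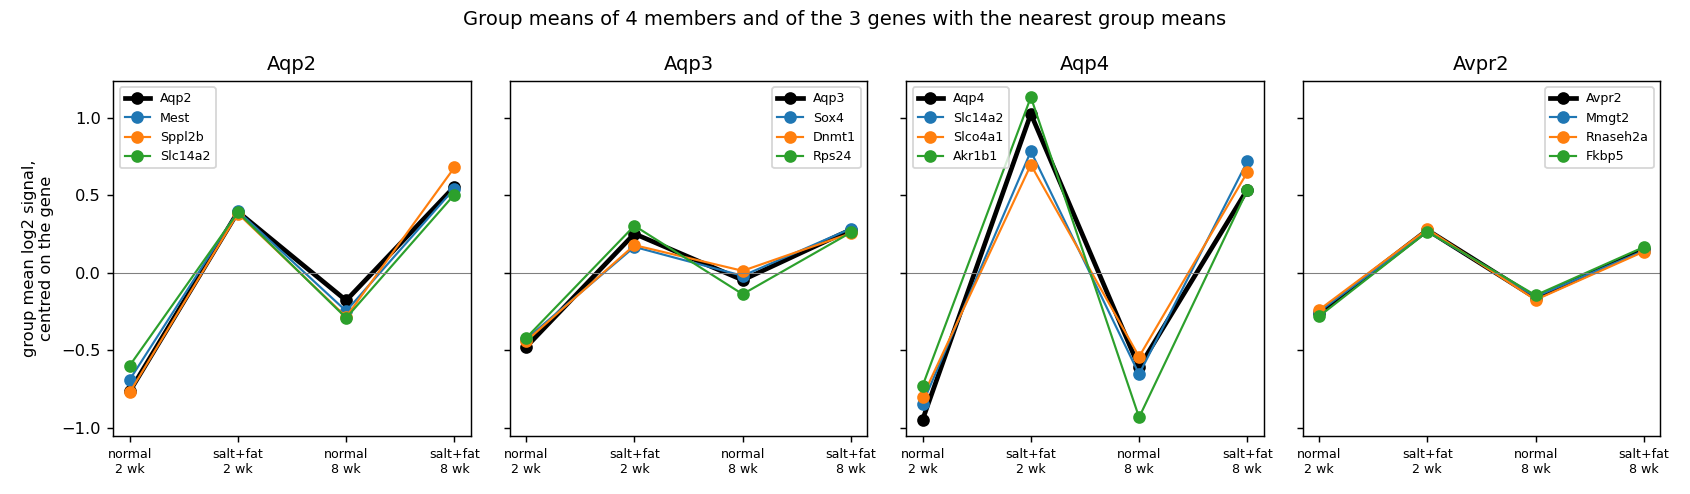
Group mean log2 signal of Aqp2, Aqp3, Aqp4 and Avpr2 (black) and of the 3 genes nearest to each in group means (coloured), centred on each gene's mean (vertical axis), in the 4 groups (horizontal axis). Lines join the group means of a gene and carry no time course. In each of the 4 panels the salt-fat groups lie above the normal-diet group of the same time.

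Animals of the same group also differed from each other in the members. Over 24 arrays and 15 pairs of members, each by its brightest probe set, deviations from the group mean were related for 2 pairs. Aqp2 and Aqp3 deviated together, with Pearson's r = 0.64 (permutation p = 0.00606, adjusted 0.0455) and Spearman's rho = 0.53 (permutation p = 0.0231, adjusted 0.173). Aqp4 and Aqp7 deviated in opposite directions, with r = -0.56 (permutation p = 0.00343, adjusted 0.0455) and rho = -0.66 (permutation p = 0.00125, adjusted 0.0188). On 11 of the 24 arrays the Aqp4 signal lay below the array's 40th percentile, so that the deviations of the normal-diet animals are those of a dim signal. Leaving out the 2 animals farthest from the median on the first gene gave r = 0.48 and r = -0.58. The number of related pairs was 2 in 10 of the 24 omissions of 1 array and 0 or 1 in the others, and 0 without normal-diet arrays 1 and 2 at 8 weeks. For Aqp2 and Aqp4, r was 0.49 (permutation p = 0.0328, adjusted 0.164) and fell to 0.09 without the 2 farthest animals.

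**Figure D4:**
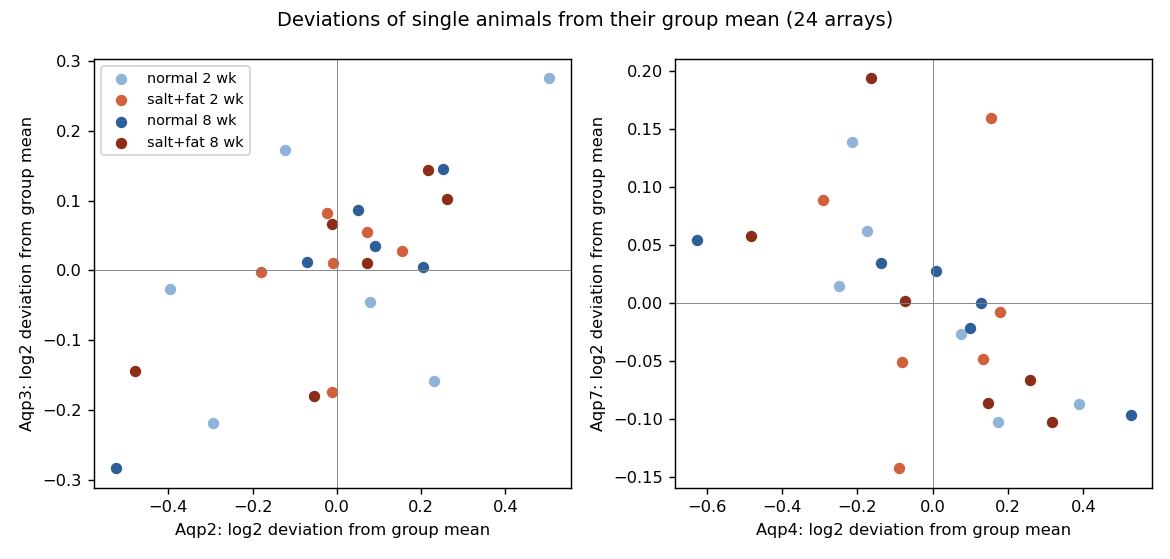
Log2 deviation of each of the 24 animals from its group mean for Aqp3 against Aqp2 (left) and for Aqp7 against Aqp4 (right), coloured by group. Points slope upward on the left, with r = 0.64, and downward on the right, with r = -0.56.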

How the data were processed

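Total RNA of pulverised whole kidney (about 100 mg of tissue, 5 µg of RNA) was labelled with biotin and hybridised to 24 Affymetrix arrays, per the labels' protocols. The authors deposited 1 linear intensity per probe set and array, a MAS5 signal according to the submitters' processing notes. Its version, scaling target and detection calls are not given in the sources used here. Array means without the extreme 2% at each end were 149 to 150, so the arrays had been scaled to 1 level. The number of arrays limits the precision.

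From these values log2(signal + 7.2) was computed, without renormalizing. A probe set was tested where its signal exceeded the array's 40th percentile (44.48 to 54.5) on 6 or more of the 24 arrays, which left 10208 of 15923. Group means were fitted to all 24 arrays with limma 3.58.1 in R 4.3.3 (lmFit, contrasts.fit, eBayes with trend, two-sided), for 5 comparisons, with calls at an adjusted p below 0.05 (Benjamini-Hochberg, all tested probe sets). The p-values measure the spread between animals of these groups. Member pairs were tested with 100000 permutations of deviations from group means. The procedure was tested on simulated data. Symbols came from the platform annotation, and 57 control probe sets were left out.

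All member probe sets are described. From a list, at most 4 genes of smallest p in the comparison described are named, each by whichever of its probe sets had the highest mean log2 signal, with exceptions stated. The genes nearest to each member were the 3 of smallest distance in group means and the 3 of highest r. These could be named by a probe set other than the gene's brightest. Members and lists were chosen with earlier results of these data known. Other settings were 2 other pseudocounts (1 and 36), quantile normalization, centring, filters, a robust eBayes and 1 with no trend, weighted arrays, replicate numbers as block, fits to just the compared groups, and each array left out. A fit that leaves out normal-diet arrays 1 and 2 of the 8-week group was added after seeing the data, as were the Aqp4 bounds and the summed list signals without 1 gene.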

Additional observations from a re-analysis of the deposited data

Results flagged for a closer look

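In 5 of the 40 sets of 6 animals that a member probe set gives over the 4 groups, 1 animal lay far from the other 5 by Dixon's criterion, which chance alone meets in about 1 of 20 sets. On the salt-fat diet at 2 weeks, array 5 had the low Aqp1 signal of 2901 by 1369625_at. On the same diet and at the same time, array 4 had the low Aqp3 signal of 459.3. On the normal diet at 8 weeks, array 1 had the low Aqp3 signal of 344.2. On the salt-fat diet at 8 weeks, array 1 had the low Aqp4 signal of 34.1 by 1368981_at. On the normal diet at 2 weeks, array 4 had the high Aqp4 signal of 20.3 by 1387397_at, a probe set below the filter.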

How the results depend on the processing

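Under the 11 planned single changes of setting, 5 or 6 member probe sets were called at 2 weeks and 3 at 8 weeks. Aqp4 1368981_at and Avpr2 1371265_at were tested in 10 of the 11 settings. In all 10, Aqp4 1368981_at was called at 2 weeks (limma adjusted p at most 0.0468). Its normal-diet baseline was dim, and its log2 bound at 2 weeks was -0.048. The diet differences of Aqp2, Aqp3 and Aqp4 1372190_at kept their direction and stayed past the threshold. The call of Aqp3 between times on the normal diet ended, leaving 0 members called, with a pseudocount of 36, quantile normalization, centring, no filter, eBayes without trend, or only the groups compared, and 2 were called without normal-diet arrays 1 and 2 at 8 weeks. On the salt-fat diet, 1 member was called between times with a pseudocount of 36, with array weights and without those arrays. All probe sets called between times on the normal diet, 4 as reported, were 2 with centring, 0 without trend, 0 with only the groups compared and 9 without those arrays. On the salt-fat diet they were 632 with array weights and 223 with only the groups compared. The interaction had 80 calls with array weights, and the diet comparison at 8 weeks 542 without those arrays. Related member pairs, 2 as reported, were 0 with a pseudocount of 36 or quantile normalization, 1 with centring and 0 without those arrays. The replicate numbers do not pair the animals (r of -0.15 to 0.16 over 36 same-number pairs, 5 of them over 0.1, and 4 of 24 arrays correlated best with their own number). With the replicate block, 6, 3, 0, 1 and 0 member probe sets were called in the 5 comparisons, and 0 member pairs were related.

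Signs changed for values that had not passed the test. Aqp1 1369625_at under quantile normalization had a 2-week diet difference of 0.028, an interaction of -0.17, and time differences of 0.068 on the normal and -0.10 on the salt-fat diet. With centring, time on the salt-fat diet gave -0.020 for Aqp1 1369625_at, -0.015 for Aqp3 and -0.039 for Aqp7, and with array weights -0.034 for Aqp7. Without normal-diet arrays 1 and 2 at 8 weeks, the interaction of Aqp4 1368981_at was 0.067 and time on the normal diet gave 0.0027 for Aqp1 1369625_at. The causes were not tested. With single arrays left out, time on the salt-fat diet ranged from -0.038 to 0.080 for Aqp1 1369625_at, from -0.0082 to 0.062 for Aqp3 and from -0.037 to 0.034 for Aqp7. All probe sets called numbered 543 to 1120 in the 8-week diet comparison, 22 to 50 in the interaction, and 0 to 10 and 220 to 507 between times on the normal and the salt-fat diet. Members called numbered 0 to 1 in the interaction, and 0 to 2 and 0 to 1 between times on the normal and the salt-fat diet, and related pairs from 0 to 2. Dim signals limit Aqp4 1387397_at, which gave 0.73 at 2 weeks (limma adjusted p = 0.235 with no filter).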
